A study of Mus musculus with 4 samples.

Results

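Genes by which cells take up fatty acids and activate them were examined in perivascular adipose tissue (PVAT) of the injured mouse femoral artery. The group holds 10 of the 12661 genes in the deposited table, namely *Lpl*, *Gpihbp1*, *Angptl4*, *Vldlr*, *Cd36*, *Slc27a1*, *Fabp4*, *Fabp5*, *Acsl1* and *Acsl5*. They were taken by symbol and all 10 were found. Tissue surrounding the femoral artery was taken from ovariectomized C57BL/6 wild type female mice, 11 weeks of age, 48 h after a sham operation (2 libraries) or after endovascular injury with a wire of 0.38 mm (2 libraries). Genotype, ovariectomy, age and tissue were thus the same in both groups. The sources used here do not say whether a library is 1 mouse or a pool, so the p-values measure the spread between these libraries. The deposited values are not counts. They are signed and appear centred gene by gene. The centre is unknown and is not the mean of these 4 libraries, over which 0 genes had values that sum to 0. The values behave as a log-like scale of unknown base. A value of 0 is thus not absence, and the levels of different genes cannot be compared. Differences are given in deposited units and not as folds. In bulk tissue fewer cells of a type and less RNA per cell cannot be told apart.

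Adipocytes obtain much of their fatty acid from circulating triglyceride. Lipoprotein lipase is secreted by adipocytes, carried across the capillary endothelium by GPIHBP1 and held on its luminal face, where it cleaves triglyceride. ANGPTL4 inhibits it, and the VLDL receptor binds triglyceride-rich lipoproteins. The released fatty acids enter cells with the help of CD36 and the transport protein FATP1 (*Slc27a1*), are bound in the cytosol by FABP4 and FABP5, and are joined to coenzyme A by the acyl-CoA synthetases ACSL1 and ACSL5. Brown adipose tissue burns fatty acids taken up in this way, and macrophages and endothelial cells use several of the same genes.

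None of the 10 genes passed an adjusted p-value of 0.05 between injury and sham operation (limma, Benjamini-Hochberg over all 12661 genes). Over all genes 7.43% passed (3.76% higher and 3.67% lower after injury). An unadjusted limma p-value under 0.05 was reached by 3 of the 10 (*Lpl*, *Vldlr* and *Acsl1*), 2 with a higher and 1 with a lower mean after injury. The shares of all genes were 29.5% in all, 14.8% higher and 14.8% lower. Both injury libraries lay above both sham libraries for *Lpl* and *Vldlr* and below both for *Acsl1* and *Slc27a1*, against 31.6% and 30.3% of all genes. The groups overlapped in the other 6 genes. As a median, the 10 genes differed by 0.092 and all genes by 0.0085. Regardless of sign the medians were 0.260 and 0.255. Differences of the 10 genes thus ran both ways and were of the size found for a gene of the table at large.

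**Figure D1:**
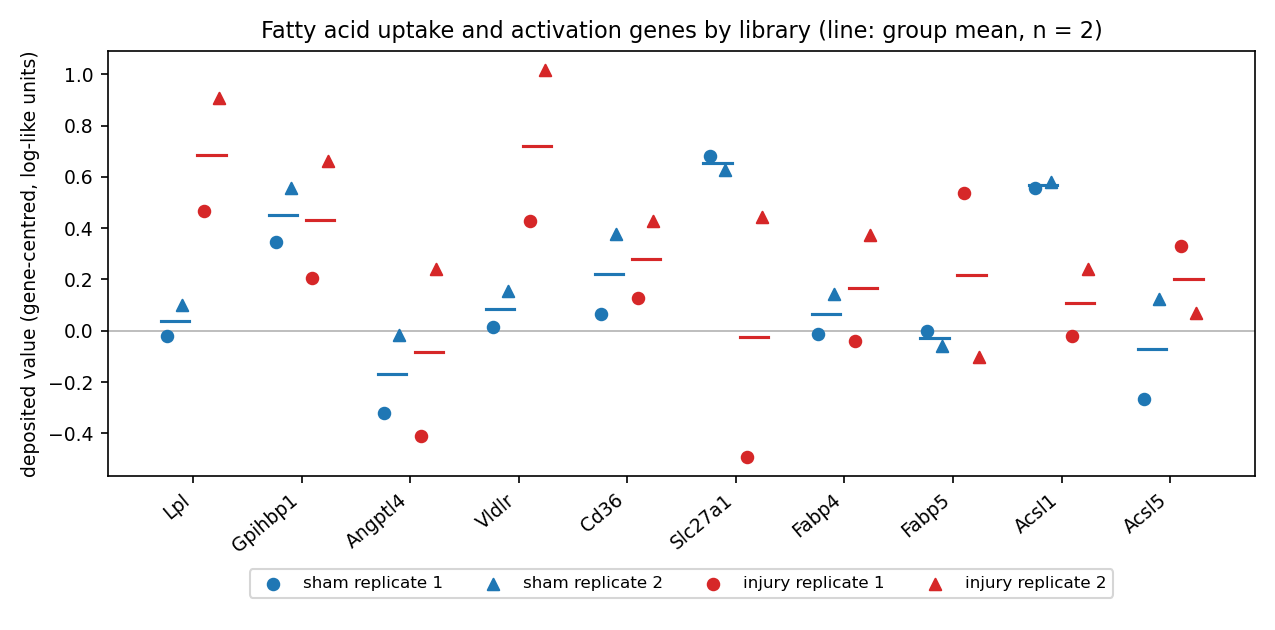
Deposited values of the 10 genes in each library (vertical axis, log-like units, horizontal axis, genes in the order lipolysis at the vessel wall, entry, binding and activation). The axis label reads gene-centred, but the centre is unknown and is not the mean of the libraries shown. Circles and triangles are replicates 1 and 2, blue is sham, red is injury and lines are means of 2 libraries. *Lpl* and *Vldlr* show both injury libraries above the sham libraries, *Slc27a1* and *Acsl1* show them below, and the injury libraries stand up to 0.93 apart.

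The promoters shown here are those of the genes whose groups did not overlap, as far as the RefSeq promoter table (GRCm38.p6) has them. The table has 9 entries for 5 of the 10 genes (*Cd36*, *Acsl1*, *Slc27a1*, *Vldlr* and *Acsl5*). For each gene shown, the most upstream entry is printed from 5′ to 3′, from 250 bases before the start of transcription to 50 after it. Coordinates are of mm9, in which each sequence had 1 exact match. Capitals mark the core of the hypoxia response element, ACGTG or GCGTG, on either strand.
Acsl1 promoter, chr8:47556141-47556440, plus strand: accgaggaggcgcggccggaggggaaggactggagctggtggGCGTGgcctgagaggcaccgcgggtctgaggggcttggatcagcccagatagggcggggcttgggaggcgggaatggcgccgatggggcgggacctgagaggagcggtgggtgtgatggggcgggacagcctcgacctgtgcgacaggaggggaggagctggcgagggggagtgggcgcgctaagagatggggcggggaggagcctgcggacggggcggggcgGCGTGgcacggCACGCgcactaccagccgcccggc
Slc27a1 promoter, chr8:74092520-74092819, plus strand: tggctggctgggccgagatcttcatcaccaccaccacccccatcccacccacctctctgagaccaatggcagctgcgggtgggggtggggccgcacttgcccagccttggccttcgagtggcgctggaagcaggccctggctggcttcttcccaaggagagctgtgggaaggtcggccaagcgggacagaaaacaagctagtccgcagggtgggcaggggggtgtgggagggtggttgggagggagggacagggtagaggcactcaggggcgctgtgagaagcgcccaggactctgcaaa
Vldlr promoter, chr19:27290724-27291023, plus strand: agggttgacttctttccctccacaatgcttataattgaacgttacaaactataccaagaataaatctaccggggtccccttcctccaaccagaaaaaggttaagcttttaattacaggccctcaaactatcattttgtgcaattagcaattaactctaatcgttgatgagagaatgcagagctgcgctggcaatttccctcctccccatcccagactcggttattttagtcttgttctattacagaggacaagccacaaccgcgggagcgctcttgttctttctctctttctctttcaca

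The *Acsl1* promoter is rich in G and C (74.0% of its bases) and holds 3 hypoxia response cores. The *Slc27a1* promoter shown (65.7% G and C) and the *Vldlr* promoter shown (43.0%) hold none. Over all 9 entries 3 had such a core, 1 each of *Acsl1*, *Slc27a1* and *Acsl5*, beside 43.8% of the 32851 promoters in the table. The hexamer of nuclear receptors, AGGTCA on either strand, was in 1 of the 9, that of *Cd36*, and in 16.3% of all promoters. A pair of such hexamers spaced by 1 base, the arrangement bound by PPAR with RXR, was in none of the 9 and in 0.0396% of all promoters. These are matches of letters within 300 bases and were not tested against expression.

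Among the genes that act on lipoproteins at the vessel wall, *Lpl*, the lipase itself (ENSMUSG00000015568.8, chromosome 8 of mm9 from 71404390 to 71431347, plus strand), was at -0.021 and 0.10 in the sham libraries. It was at 0.47 and 0.91 in the injury libraries. Both injury libraries were higher than both sham libraries, and injury replicate 2 was the highest of the 4. The difference was 0.65 (standard error, SE, 0.19, limma adjusted p = 0.0953), the lowest adjusted p-value among the 10 genes. *Vldlr*, the lipoprotein receptor (ENSMUSG00000024924.7, chromosome 19 from 27290974 to 27328721, plus strand), stood at 0.016 and 0.16 after sham operation. Its injury values were 0.43 and 1.02. The groups did not overlap and the libraries took the same order as for *Lpl*. The difference of *Vldlr* was 0.64 (SE 0.22, limma adjusted p = 0.137). With injury replicate 2 left out *Vldlr* differed by 0.34 and *Lpl* by 0.43 (adjusted p = 0.251 and 0.167 from limma). In the ranking of all 12661 differences from the highest, *Lpl* stood at place 1048 and *Vldlr* at place 1084.

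*Gpihbp1*, which tethers the lipase to endothelium (ENSMUSG00000022579.4, chromosome 15 from 75427088 to 75428642, plus strand), had sham values of 0.35 and 0.56. In the injury libraries it was at 0.20 and 0.66, so the injury libraries were both the lowest and the highest of the 4. Its difference was -0.019 (95% interval -0.52 to 0.48, adjusted p = 0.961 from limma). *Angptl4*, the inhibitor (ENSMUSG00000002289.9, chromosome 17 from 33910695 to 33918520, minus strand), was at -0.32 and -0.018 after sham operation and at -0.41 and 0.24 after injury. Here too the injury libraries enclosed the sham libraries. The difference was 0.085 (95% interval -0.55 to 0.72, adjusted p = 0.852 from limma). These intervals, computed for each gene alone, are wide enough to hold a change as large as that of *Lpl* in *Angptl4*.

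Of the genes for entry through the plasma membrane, *Cd36*, a scavenger receptor for long-chain fatty acids (ENSMUSG00000002944.8, chromosome 5 from 17287508 to 17394777, minus strand), was at 0.065 and 0.38 in the sham libraries. The injury libraries were at 0.13 and 0.43. Replicate 2 was above replicate 1 by a similar step in both groups, and the groups overlapped. The difference was 0.057 (95% interval -0.41 to 0.52, adjusted p = 0.863 from limma). *Slc27a1* (ENSMUSG00000031808.6, chromosome 8 from 74092826 to 74110607, plus strand) had closely spaced sham values of 0.68 and 0.63. Its injury values of -0.49 and 0.44 were both lower but 0.93 apart, the widest gap between 2 libraries of a group among the 10 genes. The difference of *Slc27a1* was -0.68 (SE 0.31, limma adjusted p = 0.216). Once injury replicate 2 was left out it was -1.14 and passed (adjusted p = 0.0163 from limma), while without injury replicate 1 it was -0.21 (adjusted p = 0.489 from limma). The size of the *Slc27a1* difference thus depended on which injury library was included.

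The cytosolic binding proteins FABP4 and FABP5 are encoded on one stretch of chromosome 3. *Fabp4*, abundant in adipocytes and capillary endothelium (ENSMUSG00000062515.2, 10204347 to 10208576, minus strand), was at -0.013 and 0.14 in the sham libraries. The injury libraries, at -0.042 and 0.37, lay around the sham values. The difference was 0.099 (95% interval -0.37 to 0.57, adjusted p = 0.763 from limma). *Fabp5*, found in epidermis, macrophages and adipocytes (ENSMUSG00000027533.9, 10012548 to 10016607, plus strand), was at 0.00097 and -0.059 in the sham libraries. It was at 0.54 in injury replicate 1 and at -0.10 in injury replicate 2, so the injury libraries again lay on either side of the sham libraries. The difference was 0.25 (95% interval -0.34 to 0.83, adjusted p = 0.529 from limma). The mouse annotation holds a *Fabp5* pseudogene, with which reads could have been shared. *Fabp5* and *Fabp4* differed in which injury library was higher. *Fabp5* minus *Fabp4* was 0.58 in injury replicate 1 and -0.47 in injury replicate 2, against 0.014 and -0.20 after sham operation.

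Of the activating enzymes, *Acsl1*, the main long-chain synthetase of fat (ENSMUSG00000018796.6, chromosome 8 from 47556395 to 47621405, plus strand), had the narrowest gap between sham libraries of the 10 genes, with values of 0.56 and 0.58. Injury replicates were at -0.022 and 0.24, both lower. The difference was -0.46 (SE 0.15, limma adjusted p = 0.122). *Acsl5*, a second long-chain synthetase (ENSMUSG00000024981.4, chromosome 19 from 55327859 to 55371117, plus strand), was at -0.27 and 0.12 after sham operation. The injury values of *Acsl5* were 0.33 and 0.071, and the groups overlapped. The difference was 0.27 (95% interval -0.21 to 0.755, adjusted p = 0.400 from limma). It was 0.077 without sham replicate 1, 0.14 without injury replicate 1 and 0.47 without sham replicate 2.

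**Figure D2:**
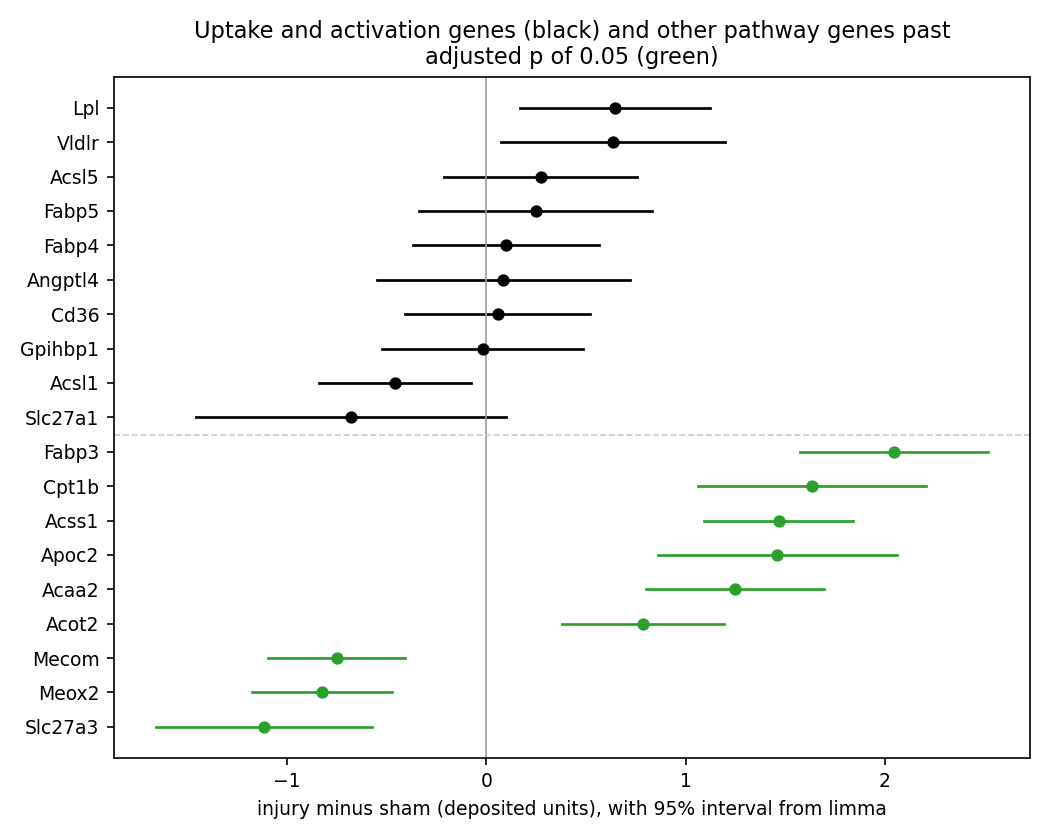
Injury minus sham in deposited units (horizontal axis) with the 95% interval from limma for each gene alone. Black marks the 10 uptake and activation genes, green the 9 other genes of the pathway lists with an adjusted p-value under 0.05. The intervals of *Lpl*, *Vldlr* and *Acsl1* do not reach 0 although none of the 10 genes passed after adjustment, and *Fabp3* has the highest difference shown, 2.05.

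Partner genes and paralogues were compared within each library, in 6 pairs. With 2 libraries against 2 an exact permutation test cannot go below p = 0.33, so no pair could pass. *Acsl5* minus *Acsl1* was -0.82 and -0.46 after sham operation and 0.35 and -0.17 after injury, a shift of 0.73 with no overlap (exact permutation p = 0.33, two-sided, n = 2 per group, adjusted p = 0.50 over the 6 pairs). *Gpihbp1* minus *Lpl* went from 0.37 and 0.46 to -0.26 and -0.25, a shift of -0.67. In this pair the 2 libraries of a group differed by less than 0.1, whereas for each gene alone the injury libraries were 0.46 and 0.44 apart. *Angptl4* minus *Lpl* shifted by -0.56 and *Slc27a1* minus *Cd36* by -0.74, both without overlap and with the same exact permutation p of 0.33. Without injury replicate 1 the shift of *Slc27a1* minus *Cd36* was -0.42 and that of *Acsl5* minus *Acsl1* was 0.47. *Vldlr* minus *Lpl* ran from -0.038 to 0.11 over the 4 libraries, with overlapping groups and a shift of -0.011. *Fabp5* minus *Fabp4* overlapped as well, with a shift of 0.15.

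Other genes of the same pathway were taken from 8 lists with 85 genes, of which 71 were measured. Of these, 6 were called higher and 3 lower after injury by limma with Benjamini-Hochberg adjustment over all genes, where 3.76% and 3.67% of all genes were called. Without sham replicate 1 limma called 0 and without sham replicate 2 it called 1 of all genes, so none of these 9 calls was kept, while *Fabp3*, for example, differed by 1.87 and 2.22. Over the 71 genes the median was 0.051. Both injury libraries were above both sham libraries in 30 of the 71 genes and below in 13, against 31.6% and 30.3% of all genes.

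The highest difference among these lists was that of *Fabp3*, the fatty acid binding protein of heart, muscle and brown fat. Its values were 0.52 and 0.88 after sham operation and 2.89 and 2.61 after injury. The groups lay far apart, with a difference of 2.05 (SE 0.19, limma adjusted p = 0.0285). *Fabp3* is the relative of *Fabp4* and *Fabp5* measured here, since 7 other members of the list, among them *Fabp1* and *Fabp2*, were not analysed. The list's binding proteins of other families, *Dbi* and *Acbd3*, differed by 0.31 and -0.18 and did not pass.

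*Slc27a3*, a relative of *Slc27a1*, was called lower after injury. It was at 0.54 and 0.64 in the sham libraries and at -0.81 and -0.25 in the injury libraries, a difference of -1.12 (SE 0.22, limma adjusted p = 0.0449). As in *Slc27a1*, the sham libraries stood close together and injury replicate 1 was the lowest. The call of *Slc27a3* was lost relative to the adipocyte markers (-0.83, adjusted p = 0.117 from limma), relative to the endothelial markers (-0.39, adjusted p = 0.1097 from limma) and without injury replicate 1 (-0.84, adjusted p = 0.0713 from limma). *Slc27a4*, the remaining transport protein measured, differed by 0.21 (adjusted p = 0.379 from limma).

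Among 10 acyl-CoA synthetases 1 was called. *Acss1*, the mitochondrial acetyl-CoA synthetase, rose from 0.13 and 0.37 to 1.73 and 1.71, a difference of 1.47 (SE 0.15, limma adjusted p = 0.0285). *Acss3* had the lowest difference of the list, -1.37 (adjusted p = 0.0504 from limma). The long-chain relatives of *Acsl1*, *Acsl3* and *Acsl4*, differed by 0.073 and 0.35 and did not pass. Of 8 acyl-CoA thioesterases, which release fatty acids from coenzyme A, *Acot2* was called higher with a difference of 0.79 (adjusted p = 0.0498 from limma). This call of *Acot2* was not kept with the replicate block (adjusted p = 0.0666 from limma), under a robust prior or after removal of the length and GC trend (adjusted p = 0.05145 and 0.05385 from limma).

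Of 12 genes of the lipase machinery 1 was called, *Apoc2*, the activator of lipoprotein lipase. *Apoc2* was at -1.36 and -0.79 after sham operation and at 0.56 and 0.21 after injury, a difference of 1.46 (SE 0.24, limma adjusted p = 0.0330). Macrophages also make *Apoc2*, and injury replicate 1 was above injury replicate 2 both in this gene and in the median of the macrophage markers (0.46 and -0.14). Their part in the *Apoc2* result was not tested. Among 12 lipoprotein and fatty acid receptors none was called by limma, and 2 reached an unadjusted p-value under 0.05. The highest difference there was that of the macrophage scavenger receptor *Msr1* (1.41, adjusted p = 0.0840 from limma) and the lowest that of *Olr1* (-1.11, adjusted p = 0.228 from limma).

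Of 9 genes of fatty acid transfer by endothelium, *Fabp3* was called higher, and the transcription factors *Meox2* and *Mecom* were called lower. *Meox2*, which with TCF15 drives *Cd36* and *Lpl* in heart endothelium, differed by -0.82 (SE 0.14, limma adjusted p = 0.0355), and *Mecom* by -0.75 (SE 0.14, limma adjusted p = 0.0407). Both lost their call with the replicate block (adjusted p = 0.0545 and 0.0624 from limma). The 12 endothelial markers had a median difference of -0.71 in the same libraries. Relative to the median of those markers *Meox2* differed by -0.10 and *Mecom* by -0.027, and neither passed (adjusted p = 0.568 and 0.885 from limma). Of 16 PPAR target genes 2 were called, *Cpt1b*, the carnitine palmitoyltransferase of muscle and brown fat (1.63, adjusted p = 0.0291 from limma), and *Acaa2*, a thiolase of mitochondrial beta-oxidation (1.25, adjusted p = 0.0291 from limma). The list's median was 0.60, and 10 of its 16 genes had both injury libraries above both sham libraries, against 31.6% of all genes. *Cpt1b* lost its call after quantile normalization (adjusted p = 0.0788 from limma). Several of the 10 uptake genes are themselves textbook PPAR targets, and of these *Lpl*, *Cd36*, *Fabp4*, *Acsl1* and *Angptl4* differed by 0.65, 0.057, 0.099, -0.46 and 0.085.

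**Figure D3:**
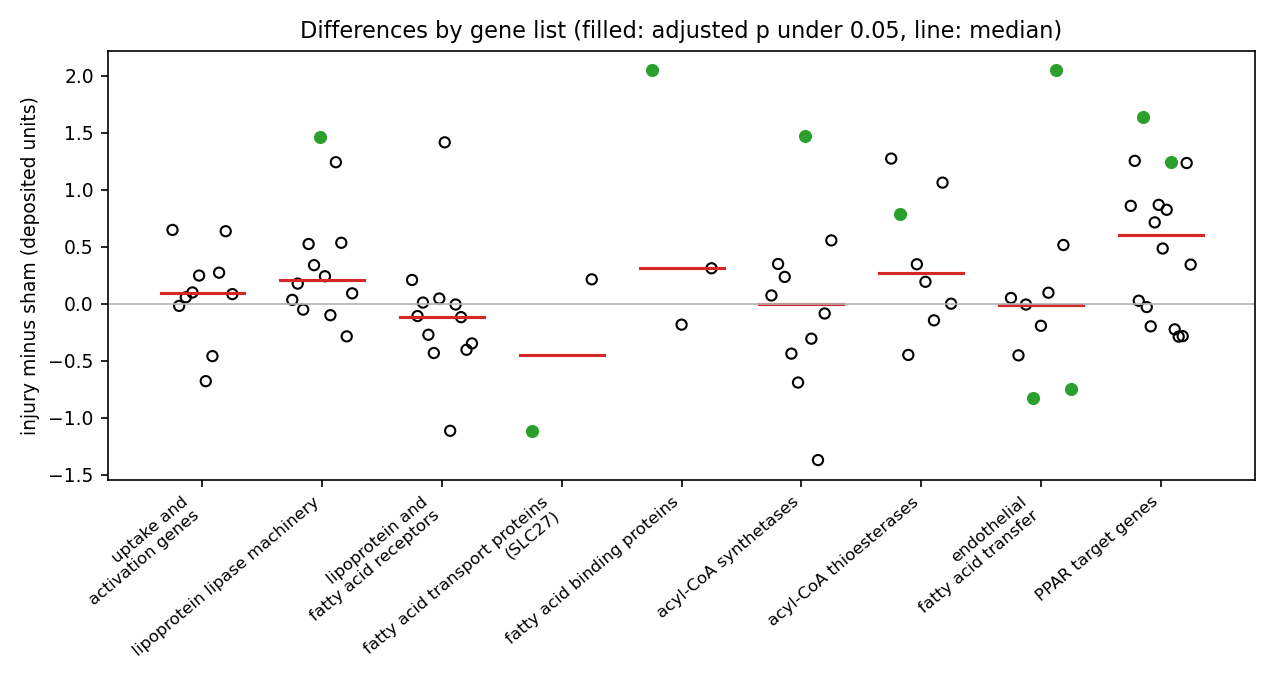
Injury minus sham in deposited units (vertical axis) for each gene of the uptake and activation group and of the 8 pathway lists. Filled points passed an adjusted p-value of 0.05 in limma and red lines are medians. The 10 uptake and activation genes hold no filled point and span -0.68 to 0.65, while *Fabp3* stands at 2.05 in both lists that contain it.

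In both groups replicate 2 lay above replicate 1 in most of the 10 genes. This held in 8 of the 10 among the injury libraries, all but *Fabp5* and *Acsl5*, against 51.1% of all genes. Among the sham libraries it also held in 8 of the 10, all but *Fabp5* and *Slc27a1*, against 48.4% of all genes. The median gap between the injury libraries, regardless of sign, was 0.45 for the 10 genes and 0.19 for all genes, and between the sham libraries it was 0.15 and 0.15. In 6 of the 10 the injury gap was larger than the difference between the groups, as in 39.6% of all genes. Injury replicate 2 was above injury replicate 1 in 12 of 14 adipocyte markers (median signed difference, replicate 2 minus replicate 1, 0.49), in all 7 smooth muscle markers (1.14) and in 9 of 12 endothelial markers (0.087), where the same signed median of the 10 genes was 0.43. It was above in 4 of 10 brown adipocyte, 3 of 7 skeletal muscle, 2 of 12 macrophage and 0 of 6 neutrophil markers. The part of these cell types in the gaps was not tested.

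The medians of the marker lists give the setting of these values. All 14 adipocyte markers were in the table, with medians of 0.32 and 0.36 after sham operation and of -0.19 and 0.29 after injury, and summed values of 4.23 and 5.66 against -2.08 and 3.81. Of these, *Plin1* was called lower (-0.74, adjusted p = 0.0444 from limma), and differences ran from -0.94 (*Retn*) to 0.54 (*Slc2a4*). The 12 endothelial markers had medians of 0.56 and 0.63 after sham operation and -0.18 and -0.07 after injury, and summed values of 6.80 and 8.29 against -2.56 and -1.66. Among them 4 were called lower, and differences ran from -2.40 (*Vwf*) to -0.20 (*Kdr*). *Gpihbp1*, a gene of capillary endothelium, differed by -0.019 beside a median of -0.71 over these markers. Of the 10 brown adipocyte markers 7 were called higher, where 3.76% of all genes were called higher and 3.67% lower. Over all 10, differences ran from 0.36 (*Ppargc1a*) to 2.15 (*Cidea*), with a median of 1.11. *Ucp1*, *Dio2* and *Ppargc1a* were not called (adjusted p = 0.164, 0.106 and 0.329 from limma). *Ucp1* was at 0.97 and 2.76 after sham operation and at 3.82 and 3.02 after injury.

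Of the 12 macrophage markers 6 were called higher. Over all 12, differences ran from -0.81 (*Cd163*, not called) to 2.14 (*Fcgr1*), with a median of 1.28. Summed values were -11.6 and -11.1 after sham operation and 4.90 and -1.10 after injury. Of the 6 neutrophil markers 2 were called higher, *Mmp8* and *Retnlg*. Over all 6, differences ran from 1.46 (*Mmp8*) to 2.20 (*Cxcr2*, not called, adjusted p = 0.0583 from limma). The 7 skeletal muscle markers had no call by limma (-1.04 for *Mylpf* to 1.11 for *Pvalb*, with 4 genes at an unadjusted p-value under 0.05), and sham replicate 1 stood above sham replicate 2 in all 7. Of the 7 smooth muscle markers 4 were called lower. Over all 7, differences ran from -2.52 (*Myh11*) to -0.74 (*Des*, not called). Since values are relative to an unknown centre, these lists show change between libraries and not whether a cell type was present.

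**Figure D4:**
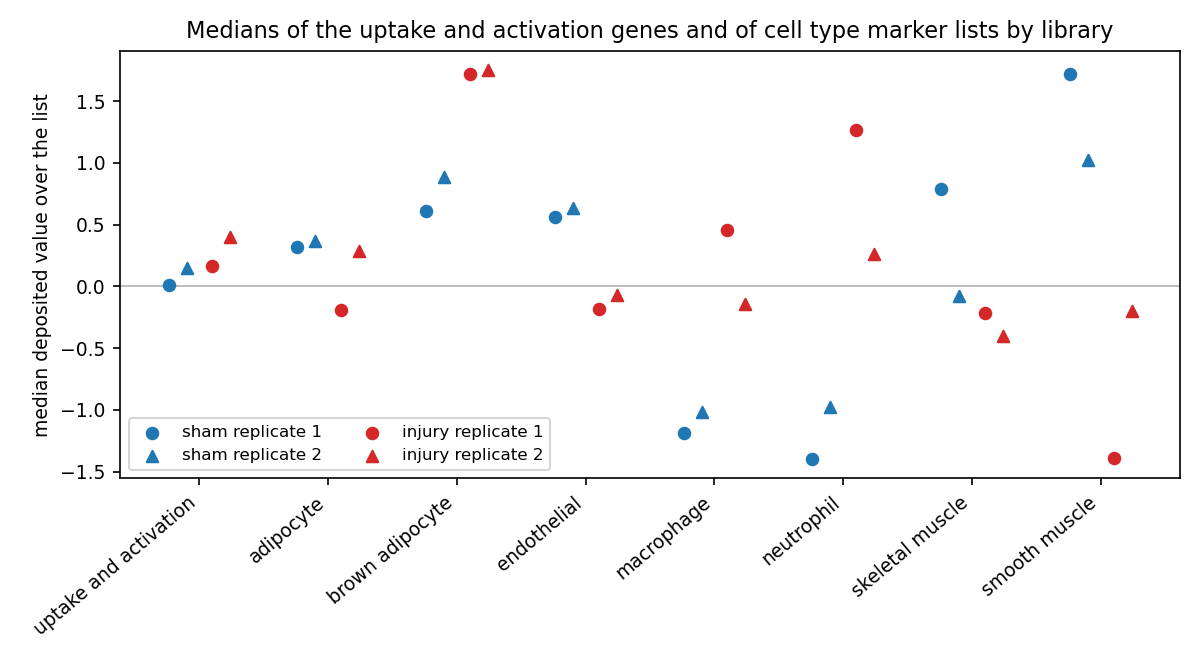
Median deposited value over each list (vertical axis) in the 4 libraries for the 10 uptake and activation genes and 7 cell type marker lists. Circles and triangles are replicates 1 and 2, blue is sham and red is injury. The medians of the uptake and activation genes run from 0.0086 to 0.40, with injury replicate 2 above injury replicate 1, as in the adipocyte markers (0.29 and -0.19) and unlike the macrophage markers (-0.14 and 0.46).

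When the values of each library were set relative to the median of its adipocyte markers, the differences of *Lpl* and *Vldlr* were 0.94 and 0.93 (adjusted p = 0.0580 and 0.0621 from limma), and those of *Acsl1* and *Slc27a1* were -0.17 and -0.39. This step moved the median of all genes from 0.0085 to 0.30. No call was made among the 10 genes, where 1196 of all 12661 genes were called (984 higher and 212 lower). Relative to the endothelial markers, which moved the median of all genes to 0.73, *Gpihbp1* differed by 0.70 (adjusted p = 0.0149 from limma) and *Cd36* by 0.78 (adjusted p = 0.00921 from limma). On that scale 8 of the 10 genes were called higher, as were 9252 of all 12661 genes. These values state how the genes changed compared with the marker lists and not by how much per cell.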

How the data were processed

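Per the labels and the study's methods, a stranded mRNA kit was used on 480 ng of RNA per library. According to the submitters' processing notes, reads were checked with FastQC 0.11.8, processed with cutadapt 1.18 and Trimmomatic 0.39, aligned to mm9 with STAR 2.6.0a, quantified with featureCounts and analysed with DESeq2 1.28.0 in R 3.6.0. The values the authors deposited are best described as a signed score from -2.27 to 6.45. Centring by gene is only apparent and its reference point is unknown, since 0 genes summed to 0 over the 4 libraries. The step from counts to this score, its log base, the filter that left 12661 genes and the counting strand are not given in the sources used here. Depth is unknown, so no counting interval or detection limit is given and precision rests on 2 libraries per group.

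The design assumed a log-like scale or counts. The former held, and limma 3.58.1 (R 4.3.3, lmFit and eBayes, no trend, group only) was fitted to all 4 libraries and 12661 genes, with 3.48 prior degrees of freedom, Benjamini-Hochberg adjustment and a threshold of 0.05. It was also run on simulated data with changes larger than those of the 10 genes, so that run does not bear on differences of their size. The 10 genes and the 15 lists were chosen with earlier results of these data known. Pathway genes are named where they passed the threshold without overlap of the groups, otherwise by the highest and lowest difference of a list, as in marker lists. *Slc27a4*, *Acsl3*, *Acsl4*, *Acss3*, *Dbi* and *Acbd3* were named in addition after their values were seen. Missing symbols were looked up among RefSeq synonyms. Coordinates are from GENCODE for NCBIM37 (mm9), which matched 92.3% of symbols, and length and GC content were known for 90.2%. Alternatives were quantile normalization, scaling columns to one spread, removal of a length and GC trend in 10 bins, centring on adipocyte or endothelial markers, a robust prior, a replicate block, a threshold of 0.1 and leaving out each library. Python 3.11.15, pandas 2.3.3, numpy 2.4.6 and matplotlib 3.10.9 were used.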

Additional observations from a re-analysis of the deposited data

How the results depend on the processing

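No gene of the 10 was called after quantile normalization, columns scaled to one spread, adipocyte-marker centring, the robust prior, the length and GC correction or the replicate block. In that order, these settings called 1061, 1095, 1196, 861, 858 and 684 of all 12661 genes. With 2 libraries per group, unknown depth and an unknown centre, intervals of the 10 genes reached from 0.38 to 0.78 on either side of the difference. Smaller changes cannot be resolved. Of 120 results (10 genes under 12 alternatives) 96 kept their direction and side of the threshold, and 15 reversed direction. The robust prior, the replicate block and the threshold of 0.1 leave every difference unchanged, so direction was fixed in advance there. At an adjusted p-value under 0.1, 1 of the 10 (*Lpl*), 21 pathway genes and 2317 of all genes (1166 higher and 1151 lower) passed.

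With the replicate block 303 genes were called lower in place of 465, of the 941 calls 579 were kept, and 6 of the 9 pathway calls remained (*Acot2*, *Mecom* and *Meox2* were lost). The replicate numbers are shared by label only, with a correlation of deviations of -0.094. Endothelial-marker centring gave 9427 calls (9252 higher and 175 lower), 8 among the 10 genes and 49 among pathway genes. Adipocyte-marker centring gave 984 higher, 212 lower and 17 among pathway genes. These steps moved the median of all genes to 0.73 and 0.30 and also changed the spread between libraries of a group. *Mecom*, *Meox2* and *Slc27a3* lost their calls under each.

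Leaving out 1 library, where a lone sample is assumed to vary like the other group, gave 0 to 1790 calls (0 to 943 higher and 0 to 847 lower), 0 to 16 pathway genes and 0 to 1 of the 10. There were 0 calls without sham replicate 1, 1 without sham replicate 2, 284 without injury replicate 1 and 1790 without injury replicate 2. *Fabp3* and *Acss1* were still called without injury replicate 1, and 8 of the 9 pathway genes without injury replicate 2.

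The direction reversed under at least 1 alternative in 7 of the 10 genes, none of them called by limma in the analysis of all 4 libraries. *Gpihbp1* was 0.024 after quantile normalization, 0.00098 with columns scaled to one spread, 0.27 and 0.70 with adipocyte-marker and endothelial-marker centring, and -0.25 to 0.21 with 1 library left out. *Slc27a1* (0.045) and *Acsl1* (0.26) turned under endothelial-marker centring alone, which shifts every gene upward, and kept their sign under the other 11 alternatives. Of those, the robust prior, the replicate block and the threshold of 0.1 leave the difference itself unchanged, so no sign could turn there. The length and GC correction turned *Fabp4* (-0.039) and *Vldlr* minus *Lpl* (0.086). With 1 library left out *Cd36* ran from -0.099 to 0.21, *Fabp4* from -0.11 to 0.31, *Fabp5* from -0.072 to 0.57, *Angptl4* from -0.24 to 0.41, *Fabp5* minus *Fabp4* from -0.38 to 0.67 and *Vldlr* minus *Lpl* from -0.085 to 0.062. The cause was not tested.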
